A study of Saccharomyces cerevisiae with 11 samples.

Results

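Expression of 10 genes of sulfate assimilation and methionine synthesis was examined in budding yeast strains with altered histone H2A tails. The genes were listed by name as members of the pathway (MET3, MET14, MET16, MET5, MET10, MET17, MET2, MET6, SAM1 and SAM2), and each was read from the probe set that the array annotation assigns to it. All 10 had 1 probe set, none of which is marked in its name as shared with other transcripts, and all 10 were among the 5415 genes whose signal lay above background, of 5449 genes with a probe set.

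Yeast cells take up sulfate, activate it with ATP and reduce it to sulfide, which is joined to a carbon chain derived from homoserine to give homocysteine. Homocysteine is methylated to methionine, and methionine is converted to S-adenosylmethionine, the methyl donor for many reactions, among them the methylation of histones. Most genes of the pathway are transcribed together under the activator Met4 and its DNA-binding partners, and are turned down when methionine or its products are plentiful.

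RNA was measured on one-colour Affymetrix arrays from log phase cultures that were diluted to an OD600 of 0.2 in YPD, a rich medium that contains methionine, and grown to 0.8 without any treatment. The strains are MATa haploids with mutant chromosomal H2A genes (hta1-1 hta2-1) that also carry ura3-52 and his3 mutations, and a centromeric HIS3 plasmid supplies their H2A. WT carries unchanged HTA1 (3 arrays), R11 has an additional arginine as residue 11 of the histone tail, K11 has a lysine there instead, ΔS15 lacks serine 15, and R11ΔS15 combines the arginine with the loss of serine 15 (2 arrays each, 11 in all). The deposited genotype entry of R11ΔS15 names a lysine, whereas its title and source name and the strain list name an arginine, which is used here. The series design calls the replicates biological, and their number limits the precision of every comparison. In bulk RNA, fewer cells that transcribe a gene and less RNA per cell cannot be told apart.

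The arrays differed in ways that are not in the labels. The ratio of the ACT1 3' to 5' control signals, a measure of RNA integrity and labelling, was 1.04 to 1.11 on WT replicate 3 and on the ΔS15 and R11ΔS15 arrays, and 1.26 to 1.35 on WT replicates 1 and 2 and on the R11 and K11 arrays. The hybridization spike-ins (12 probe sets) did not overlap between these sets, with mean log2 signals of 10.46 to 10.51 in the former and 10.59 to 10.80 in the latter. Their own widest gap, however, set WT replicate 1 alone apart. Genes of chromosome IX had a median log2 signal 0.74 above the median array on ΔS15 replicate 1 and R11ΔS15 replicate 2, and between -0.05 and 0 on the others (188 genes). None of the 10 genes (0) lies on chromosome IX. All 6 MATa markers were expressed, with a summed signal of 12939 to 15456, against 898 to 1188 for 4 MATalpha markers. Of the latter, SAG1 alone had a mean signal above 200, at 645 to 823, which overlaps the MATa marker AGA2 (593 to 829).

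With all arrays in the fit, no sulfate assimilation or methionine gene passed the test in any mutant. In limma fits with Benjamini-Hochberg adjustment over the tested genes, 0 of 10 had an adjusted p under 0.05 in any of the 4 mutants against WT, as did 0 of 5415 genes (0%). The gene with the largest log2 difference from WT was MET2, at 0.74 in R11ΔS15 and 0.54 in ΔS15, followed by MET3 at 0.41 and 0.47. In R11 and K11, every member stayed between -0.15 and 0.11. At an unadjusted p under 0.05, limma marked MET2 alone of the 10, in ΔS15, where 2.68% of all tested genes were marked as higher, and in R11ΔS15, where 4.34% were (286 and 544 genes in either direction). In R11 and K11 it marked 0 of 10 members, and 0.351% and 0.425% of all genes.

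**Figure D1:**
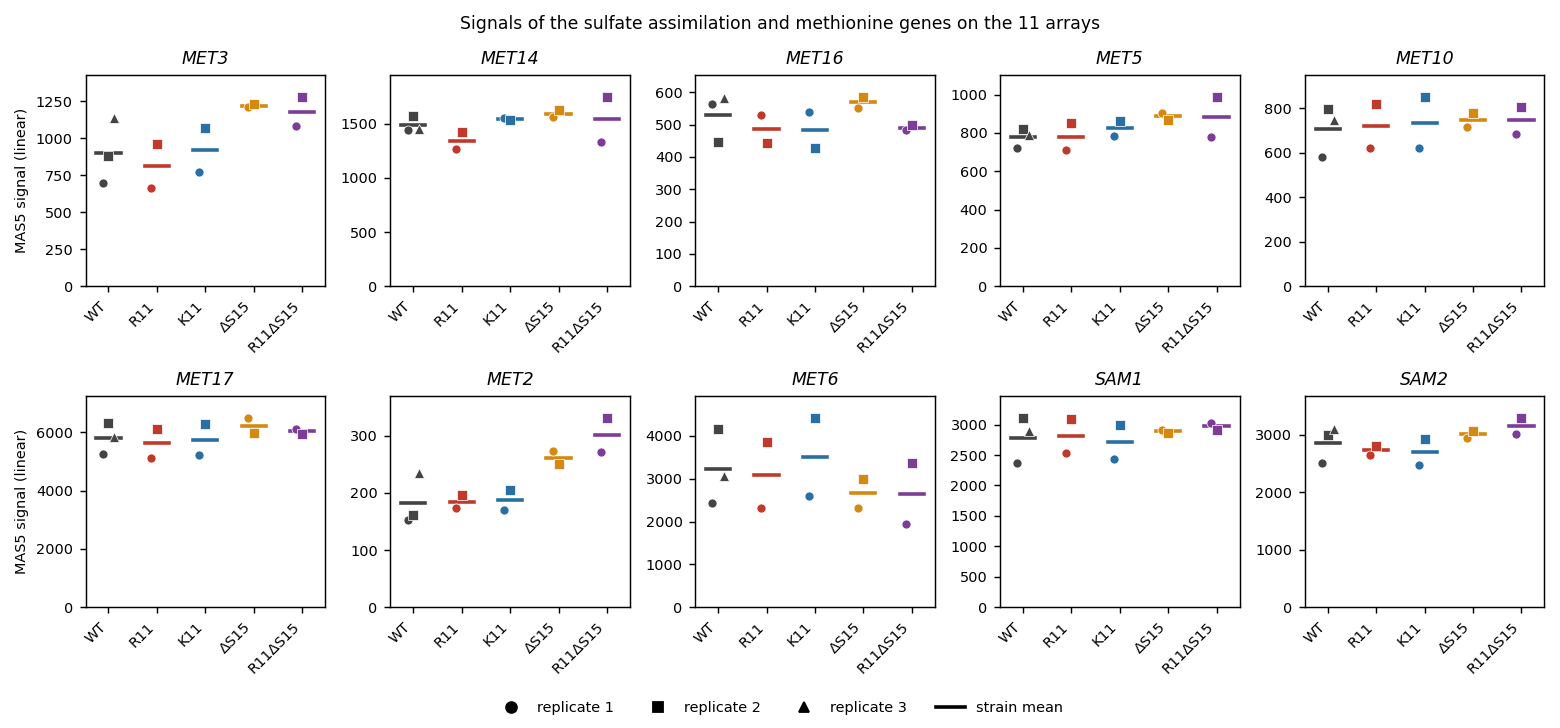
MAS5 signal (linear scale, from 0) of each gene on every array, by strain, with circles, squares and triangles for replicates 1, 2 and 3 and a bar for the strain mean. MET2 was between 250 and 330 on the ΔS15 and R11ΔS15 arrays and between 152 and 235 on the others, whereas the other genes overlapped between most strains.

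MET3 (YJR010W, chromosome X) encodes ATP sulfurylase, which starts the pathway by activating sulfate. Its signal was 695, 877 and 1133 on the WT arrays, 662 and 959 in R11, 773 and 1067 in K11, 1212 and 1229 in ΔS15, and 1082 and 1276.5 in R11ΔS15. Both ΔS15 arrays lay above every WT array, while R11ΔS15 overlapped WT through WT replicate 3. The log2 fold change was 0.47 (standard error 0.22, limma adjusted p = 0.782) in ΔS15 and 0.41 (0.22, adjusted p = 0.556) in R11ΔS15. WT replicate 3 was the WT array nearest to these strains. Against it alone, MET3 was 0.11 higher in ΔS15 and 0.05 higher in R11ΔS15 on the log2 scale, and against WT replicates 1 and 2 it was 0.65 and 0.59 higher.

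MET14 (YKL001C, chromosome XI) encodes adenylylsulfate kinase, the next enzyme, whose product is reduced by the phosphoadenylylsulfate reductase MET16 (YPR167C, chromosome XVI). MET14 gave 1439, 1575 and 1452 in WT, 1265 and 1425 in R11, 1555 and 1531 in K11, 1564 and 1624 in ΔS15, and 1335 and 1745.5 in R11ΔS15. Both R11 arrays lay below all WT arrays and below both K11 arrays, by 0.15 (standard error 0.12) and 0.20 (0.14) on the log2 scale, with limma adjusted p = 0.9999 and 0.99999. Arrays lower than WT without overlap were found at 4.71% of all genes in R11, and lower than K11 at 8.90%. MET16 gave 565, 448 and 582 in WT, 531 and 443 in R11, 540 and 426 in K11, 552 and 585 in ΔS15, and 483 and 498 in R11ΔS15. Its arrays separated without overlap in 1 of the comparisons made here, R11ΔS15 against ΔS15, with a log2 difference of -0.21 (standard error 0.17, limma adjusted p = 0.9999), where 7.94% of all genes were lower without overlap.

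MET5 (YJR137C, chromosome X) and MET10 (YFR030W, chromosome VI) encode the 2 kinds of subunit of sulfite reductase, which makes sulfide. MET5 gave 719, 822 and 789 in WT, 710 and 850 in R11, 783 and 864 in K11, 905 and 868 in ΔS15, and 780 and 986 in R11ΔS15. Its ΔS15 arrays lay above the WT arrays, with a log2 fold change of 0.19 (standard error 0.14, limma adjusted p = 0.806). MET10 gave 582, 798 and 748 in WT, 621 and 821 in R11, 620 and 850 in K11, 717 and 780 in ΔS15, and 686 and 805 in R11ΔS15. All strains overlapped for MET10, and only 3.92% of its variance over the arrays lay between strains.

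MET17 (YLR303W, chromosome XII) encodes the sulfhydrylase that joins sulfide to O-acetylhomoserine, and MET2 (YNL277W, chromosome XIV) the acetyltransferase that supplies O-acetylhomoserine. MET17 had the narrowest range over the 11 arrays, 1.26-fold, from 5135 on R11 replicate 1 to 6480 on ΔS15 replicate 1, with log2 fold changes against WT of -0.05 to 0.10. MET2 gave 152, 161 and 235 in WT, 174 and 196 in R11, 171 and 206 in K11, 273 and 250 in ΔS15, and 272 and 330 in R11ΔS15. All 4 arrays of the strains without serine 15 lay above the other 7 arrays, as for 1 of the 10 members (MET2 itself) and 2.62% of all tested genes. The mean signal was 183 ± 45.4 (SD, n = 3) in WT, 262 ± 16.2 (SD, n = 2) in ΔS15 and 301 ± 41.2 (SD, n = 2) in R11ΔS15.

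For MET2, the log2 fold change was 0.54 (standard error 0.20, limma adjusted p = 0.782) in ΔS15 and 0.74 (standard error 0.20, limma adjusted p = 0.449) in R11ΔS15. The second of these is 1.67-fold, the only member past 1.5-fold, with a 95% interval of the log2 fold change from 0.30 to 1.18, and 2.01% of all genes were that much higher in R11ΔS15. The call depended on WT replicate 3, since without it MET2 was at 0.94 in R11ΔS15 with a limma adjusted p of 0.0262, and at 0.74 in ΔS15 with 0.0781. Against WT replicate 3 alone, MET2 was 0.15 and 0.35 higher, and against WT replicates 1 and 2 it was 0.74 and 0.94 higher. A term for the ACT1 ratio sets, added after the data had been seen, gave the values against WT replicate 3 and 0 called genes. In R11 and K11, the MET2 log2 fold changes were 0.04 and 0.06 with all arrays (standard error 0.20 each). Without WT replicate 3, which is not in the ACT1 ratio set of R11 and K11, they were 0.24 and 0.26. The size of the contrast with ΔS15 and R11ΔS15 therefore depended on which WT arrays were used.

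MET6 (YER091C, chromosome V) encodes the methionine synthase, which methylates homocysteine without cobalamin. Its signal was 2433, 4163 and 3057 in WT, 2324 and 3853 in R11, 2602 and 4407 in K11, 2322 and 2996 in ΔS15, and 1945 and 3358 in R11ΔS15. Arrays of a single strain differed by up to 1.73-fold, against 2.27-fold over the whole series. Log2 fold changes were -0.25 in ΔS15 and -0.30 in R11ΔS15 (standard error 0.31 each), so that 95% intervals reached from -0.92 to 0.42 and from -0.97 to 0.37. The R11ΔS15 value was -0.69 without its replicate 2 and 0.10 without its replicate 1, and the ΔS15 value was -0.44 without WT replicate 1 and -0.05 without WT replicate 2.

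SAM1 (YLR180W, chromosome XII) and SAM2 (YDR502C, chromosome IV) encode the S-adenosylmethionine synthetases, which are closely alike in sequence, so that some cross-hybridization cannot be told apart from signal. SAM1 ranged from 2369 to 3103 in WT, from 2438 to 3100 in R11 and K11, from 2870 to 2912 in ΔS15, and from 2911 to 3031 in R11ΔS15. SAM2 ranged from 2498 to 3090 in WT, from 2471 to 2918 in R11 and K11, and from 2943 to 3282 in ΔS15 and R11ΔS15. Every strain overlapped WT for both genes, and the log2 fold changes lay between -0.08 and 0.14.

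**Figure D2:**
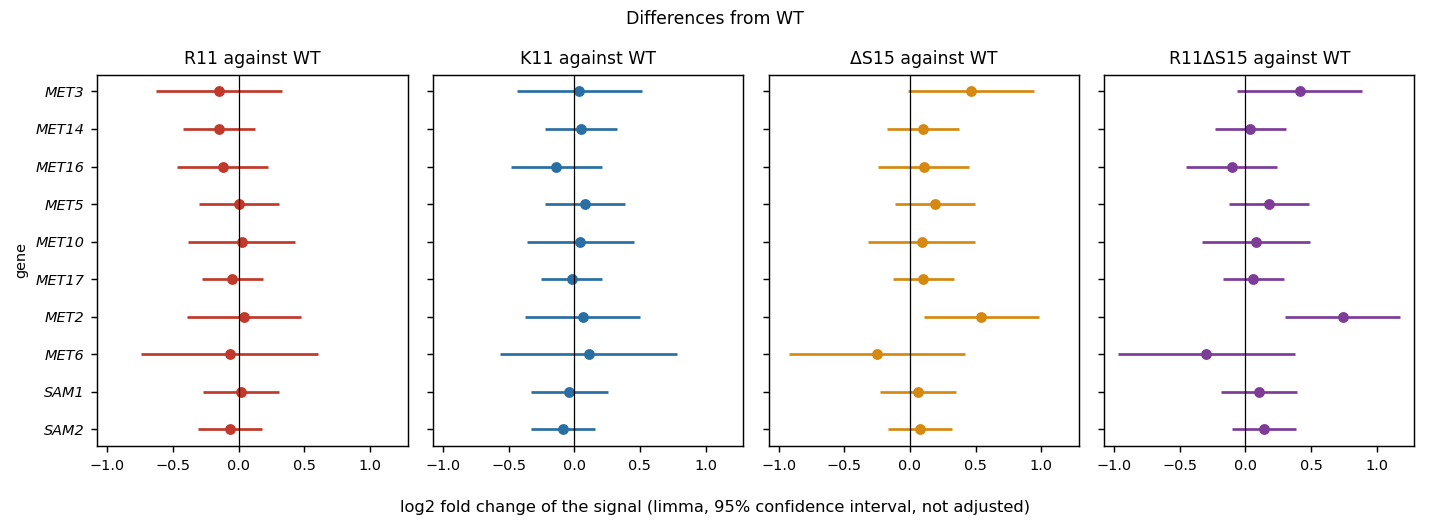
Log2 fold change of each gene against WT (points) with its 95% confidence interval from limma, not adjusted for the number of genes (bars), in a panel per mutant. MET2 in ΔS15 (0.54) and R11ΔS15 (0.74) is the gene whose interval excludes 0, and the intervals are widest for MET6.

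As a group, the 10 genes had a median log2 fold change of -0.06 (R11), 0.04 (K11), 0.10 (ΔS15) and 0.09 (R11ΔS15), against -0.02, -0.01, 0.00 and 0.00 for all tested genes. The estimate was above 0 for 4, 6, 9 and 8 of the 10, and for 43.5%, 44.5%, 50.8% and 50.4% of all genes. Most pairs of members were positively correlated over the arrays, so these are not 10 separate results. WT replicate 3 was the only WT array in the ACT1 ratio set of ΔS15 and R11ΔS15. Against it alone, MET16, MET6 and SAM2 were below 0 in ΔS15, and MET16, MET10 and MET6 in R11ΔS15, with the other members above 0. A term for these sets, added after the data had been seen, gave a ΔS15 median of 0.05. For R11 and K11, the replicate number as a block, which leaves WT replicate 3 out of the contrasts, gave medians of 0.005 and 0.06. MET3, MET5 and MET2 lay above WT without overlap in ΔS15 (3 of 10, against 7.90% of all genes), and MET2 did so in R11ΔS15 (1 of 10, against 10.6%). The 4 comparisons share the WT arrays, and the pooled standard deviation of the median of the 10 genes between arrays of a strain was 0.16. With all arrays, the shift of the median in each mutant was smaller than this spread. Leaving out 1 array moved it between -0.15 and 0.12 in R11, -0.17 and 0.13 in K11, 0.05 and 0.15 in ΔS15 (without WT replicate 1 and 2), and 0.00 and 0.20 in R11ΔS15 (without WT replicate 1 and R11ΔS15 replicate 1).

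Whether the arginine acts differently from a lysine at the same position, or in the absence of serine 15, was examined directly. Against K11, R11 had a median log2 difference of -0.03 over the 10 genes, and limma called 0 of 10 members and 0 of 5415 genes (0%). At an unadjusted p under 0.05 it marked 0 of 10 members and 12 genes in all (0.222%). R11ΔS15 against ΔS15 had a median of -0.03, with 0 of 10 members and 0% of genes called, and 0 members and 23 genes (0.425%) at an unadjusted p under 0.05. The largest differences there were -0.21 for MET16 and 0.20 (95% interval -0.28 to 0.68) for MET2. The effect of the arginine without serine 15 minus its effect with serine 15 had a median of 0.02, with 0 of 10 and 0% called, and 0 members and 7 genes (0.129%) at an unadjusted p under 0.05.

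For 8 of the 10 members, most of the variance over the arrays lay between replicates of a strain, as it did for a typical gene (median share between strains 35.4% for members and 35.6% for all genes). MET6 was 1.71-fold higher on replicate 2 than on replicate 1 of WT, 1.66-fold in R11, 1.69-fold in K11, 1.29-fold in ΔS15 and 1.73-fold in R11ΔS15. Its within-strain standard deviation of 0.45 on the log2 scale was at the 96.9th percentile of all tested genes, and 16.4% of its variance lay between strains. The exceptions were MET2, with 75.2% of its variance between strains, and MET3, with 53.4%. Over the 10 genes, the median within-strain standard deviation was 0.171, and 0.170 over all genes.

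The direction of the difference recurred between strains. Replicate 2 was higher than replicate 1 for 9 of 10 members in WT, 9 in R11 and 8 in K11, with median log2 differences of 0.26, 0.26 and 0.27, whereas 49.3%, 51.6% and 49.4% of all genes were higher. In all 3 of these strains, 8 of 10 members were higher on replicate 2, as were 34.4% of all genes. MET16 ran the other way, with replicate 2 at 0.792 of replicate 1 in WT, 0.835 in R11 and 0.789 in K11. In R11ΔS15, 8 of 10 members were higher on replicate 2 (median 0.23), against 47.4% of all genes, and in ΔS15 6 of 10 (median 0.04), against 63.0%. The labels do not say that a replicate number marks a shared day or batch.

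**Figure D3:**
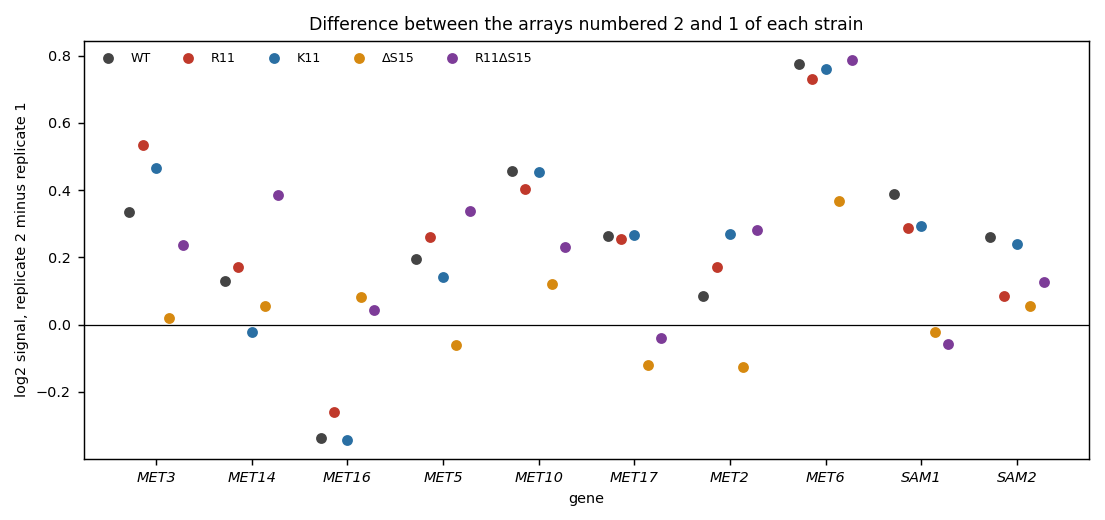
Log2 signal of the array numbered 2 minus that of the array numbered 1 for each gene, with a point per strain and the line at 0. MET6 lies at 0.73 to 0.79 in all strains but ΔS15 (0.37), and MET16 is below 0 in WT, R11 and K11 only.

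Most pairs of the 10 genes were positively correlated across the arrays. The same share was not computed for pairs of all tested genes, so it is not known whether the members stand out. Of 45 pairs, 37 had a Pearson correlation above 0 over the 11 arrays, which share strains and processing, and the median was 0.50. The highest was 0.91, between MET17 and SAM1, and MET3 with MET2 had 0.88. MET16 was the exception, with negative correlations to 7 of the other 9 genes, the lowest at -0.60 with MET6. After removal of the strain means the median correlation was 0.70. In each mutant the deviations of the arrays from the strain mean mirror each other. The value of 0.70 therefore largely restates the differences between replicates described above, and is not separate evidence that the genes vary together.

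A further 47 genes of the pathway, in 8 lists from sulfate uptake to the regulators, also gave 0 calls in limma in each direction and in each mutant. Their median log2 fold changes were -0.02 (R11), 0.01 (K11), 0.04 (ΔS15) and 0.06 (R11ΔS15). In R11 the highest were IRC7, which encodes a cysteine beta-lyase, at 0.30 and MUP3, a low-affinity methionine permease, at 0.26, and the lowest SAM3, the S-adenosylmethionine permease, at -0.44 and MUP1, the high-affinity methionine permease, at -0.27. In K11 they were IRC7 and the sulfate permease SUL1 at 0.21 each, and SAM3 at -0.39 and the glutathione synthetase GSH2 at -0.20.

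In the strains without serine 15, the highest were MET28 (0.61 in ΔS15, 0.76 in R11ΔS15) and MUP1 (0.55 and 0.66). The lowest were MUP3 (-0.29 and -0.38), together with ADI1, which encodes a dioxygenase of methionine salvage, in ΔS15 (-0.26) and the regulator gene MET31 in R11ΔS15 (-0.26). Standard errors were 0.34 for MET28, 0.45 for MUP1, 0.17 for MUP3 and MET31 and 0.18 for ADI1, with limma adjusted p of 0.483 or more. MUP1 gave 329, 729 and 936 in WT, 329 and 774 in R11, 373 and 829 in K11, 876 and 908 in ΔS15, and 1024 and 907 in R11ΔS15. It was low on the first array of WT, R11 and K11, and against WT replicate 3 alone it was -0.07 in ΔS15 and 0.04 in R11ΔS15.

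MET13, the methylenetetrahydrofolate reductase gene that feeds methyl groups to Met6, was also low on the first array of WT, R11 and K11, and was picked out after its values were seen, as was MET1. MET13 gave 123, 262 and 277 in WT, 140 and 270 in R11, 121 and 281 in K11, 306 and 266 in ΔS15, and 271 and 290 in R11ΔS15. MET1, which encodes an enzyme of the siroheme cofactor of sulfite reductase, gave 298, 356 and 423 in WT, 323 and 389 in R11, 334 and 397 in K11, 528 and 489 in ΔS15, and 530 and 479 in R11ΔS15. As with MET2, all 4 arrays without serine 15 exceeded the other 7 for MET1, the 1 gene of the 47 that did so (against 2.62% of all tested genes), at log2 fold changes of 0.52 and 0.51 (standard error 0.17 each, limma adjusted p = 0.782 and 0.449). Against WT replicate 3 alone they were 0.27 and 0.25.

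Of the 47 further genes, 4 were at least 1.5-fold higher on replicate 2 than on replicate 1 in WT, R11 and K11 alike (8.51%, against 0.591% of all tested genes), namely MUP1, the S-methylmethionine permease gene MMP1, MET13 and the cystathionine beta-lyase gene STR3, which were singled out after their values were seen. MUP1 was 2.22-fold higher in WT, 2.35-fold in R11 and 2.22-fold in K11, whereas replicate 2 was at 1.04 of replicate 1 in ΔS15 and 0.885 in R11ΔS15. MMP1 was 2.30-fold higher in WT and 1.76-fold in R11, against 1.19 in ΔS15 and 0.737 in R11ΔS15. Of the members, MET6 alone passed this limit in these 3 strains (1 of 10).

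**Figure D4:**
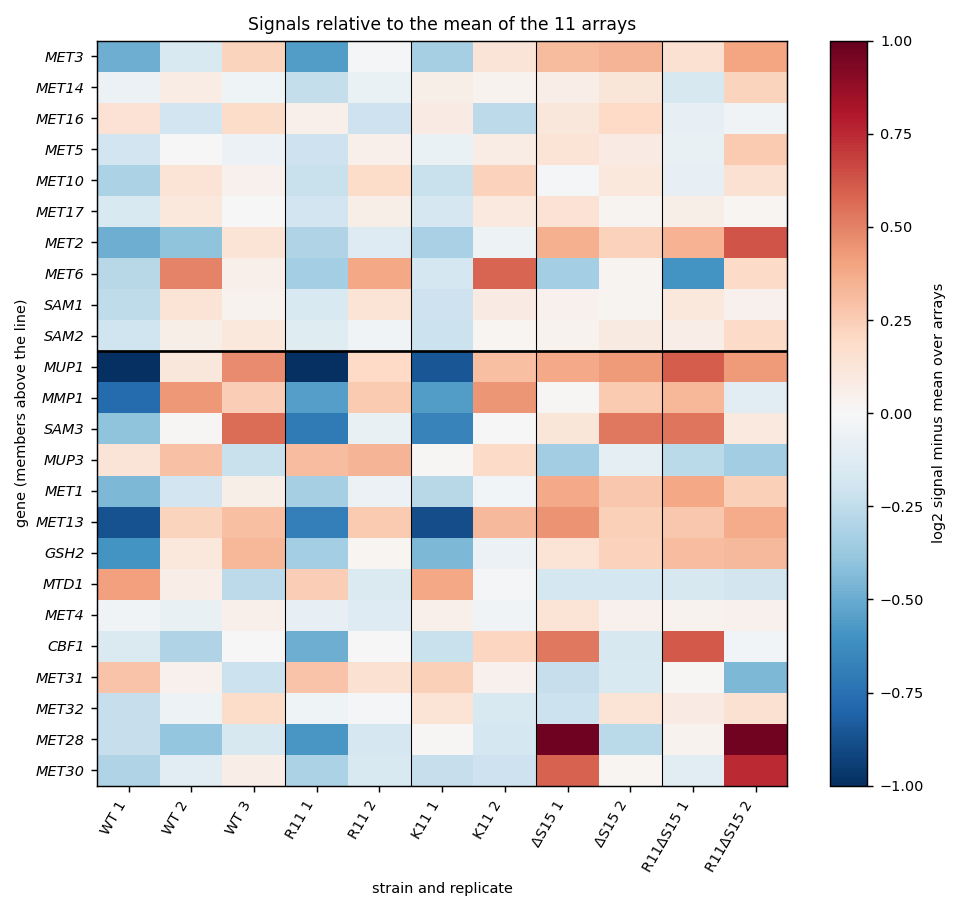
Log2 signal of each gene on each array minus its mean over the 11 arrays (colour, ending at -1 and 1), with the 10 members above the line and further pathway genes, some picked after their values were seen, below it. MET3, MET2, MUP1 and MET13 are lowest on the first array of WT or R11 or K11, and MET28 and MET30 are highest on ΔS15 replicate 1 and R11ΔS15 replicate 2.

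Of the regulators, MET4, the activator, varied 1.20-fold over the arrays, from 404 to 486, with log2 fold changes of -0.09 to 0.11. CBF1, whose product binds the promoters with Met4, had log2 fold changes of 0.33 in ΔS15 and 0.44 in R11ΔS15 (standard error 0.26 each). Its signal was 234 and 145 in ΔS15 and 248 and 159 in R11ΔS15, against 132 to 162 in WT. In both strains replicate 1 alone lay above the WT range. MET32, a zinc-finger partner of Met4, lay between -0.01 and 0.15 in the 4 mutants, and its paralogue MET31 was at 0.18 in R11 and 0.10 in K11. None of these differences passed the test.

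MET28, a leucine-zipper partner of Met4, and MET30, the F-box protein that marks Met4 for ubiquitylation, both lie on chromosome IX. MET28 gave 161, 143 and 168 in WT, 125 and 167 in R11, 189 and 166 in K11, 368 and 156 in ΔS15, and 192 and 367 in R11ΔS15. MET30 gave 386, 442 and 498 in WT, 382 and 428 in R11, 406 and 413 in K11, 717 and 482 in ΔS15, and 442 and 800 in R11ΔS15. Both were highest on the 2 arrays on which chromosome IX genes stood 0.74 higher, whereas on the other array of each strain MET30 lay within the WT range and MET28 was at 156 and 192. On those 2 arrays MET3 was at 1212 and 1276.5 and MET2 at 273 and 330, whereas the other arrays of the same strains had 1229 and 1082 and 250 and 272.

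**Figure D5:**
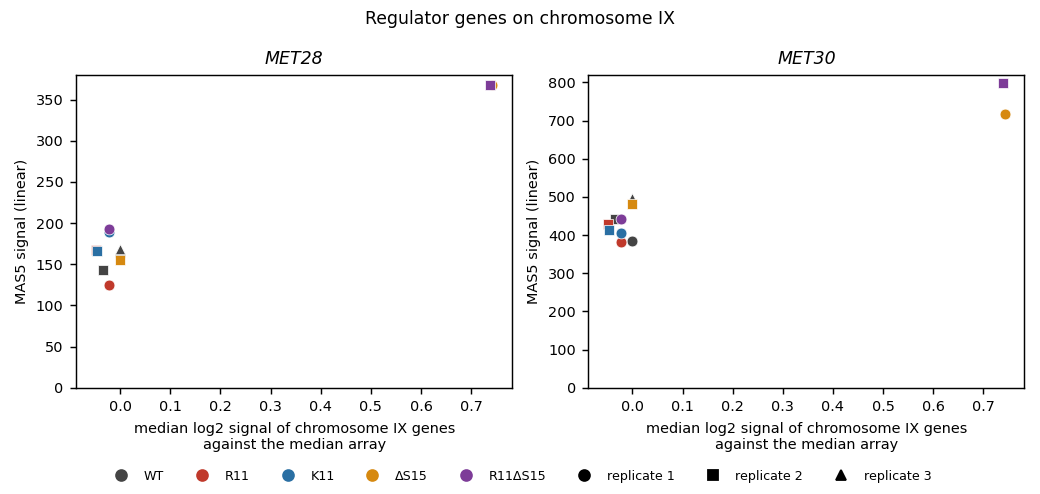
MAS5 signal (linear scale, from 0) of MET28 and MET30 on each array against the median log2 signal of the genes of chromosome IX relative to the median array, with colours for strains and symbols for replicates. ΔS15 replicate 1 and R11ΔS15 replicate 2 lie apart at 0.74 (for MET28 their points overlap, at 368 and 367), and the other 9 arrays lie between -0.05 and 0.

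Genes outside the pathway also followed the mean of the 10 members. Over the 11 arrays the highest correlations were those of NTH1, a trehalase gene (0.96), MRS6, DAK1, a dihydroxyacetone kinase gene, ESC8 and TPD3, a scaffold subunit gene of protein phosphatase 2A (0.95 each). The lowest were those of HEM13, a heme synthesis gene (-0.96), YCR087C-A (-0.96), SNF11 (-0.96), YDL241W (-0.95) and SCD6 (-0.95). A correlation above 0.7 was found for 725 of 5405 other tested genes (13.4%) and for 15 of the 47 further pathway genes (31.9%). A correlation above 0 was found for 53.8% and 68.1% of them. Other pathway genes ran strongly against the members, among them ADI1 (-0.91) and MET31 (-0.88). These correlations describe 11 arrays that share strains and array sets.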

How the data were processed

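The authors deposited MAS5 signal intensities on a linear scale, 1 array per sample; the MAS5 version is not given in the sources used here. Each array already had the same mean, 500.2 to 500.3 after 2% was trimmed from each end, so no scaling was added. Probe sets (10928, of which 213 were controls) were named with the array annotation, and locus tags and chromosomes came from the R64 assembly. Where a gene had several probe sets, that with the highest mean was used. Genes were tested if their mean log2 signal exceeded 2.35, a signal of 5.1. This limit is the 95th percentile of 1747 probe sets taken as S. pombe from the form of their gene symbol. It is low and removes few genes. The 5 strains were fitted jointly on the log2 scale with limma 3.58.1 (R 4.3.3), using all 11 arrays, which leaves 6 residual degrees of freedom, with a variance trend and Benjamini-Hochberg adjustment over 5415 genes (threshold 0.05). The fit was run on simulated data with independent normal noise for each gene. The simulation held no array sets, replicate pattern or chromosome IX shift, so it does not cover those features of these arrays. Python 3.11.15 and matplotlib 3.10.9 were used for plotting.

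The members, pathway lists, markers and tests were chosen with earlier results of these data known. Genes named were the 10 members, the regulators, the 2 highest and 2 lowest further pathway genes of each mutant, and the 5 genes most and least like the mean of the members. MET1, MET13, MMP1 and STR3 fall outside this rule and were chosen after their values were seen. Alternatives tried were quantile normalization, centring, a constant of 50 added to the signals, other filters and probe set rules, leaving out each array or the arrays with raised chromosome IX, the replicate number as a block, a spike-in term, no variance trend, and only the strains compared. A term for the ACT1 ratio sets was added after the data had been seen.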

Additional observations from a re-analysis of the deposited data

How the results depend on the processing

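When the replicate number entered as a block, WT replicate 3 no longer informed the contrasts, and limma then called 173 genes for ΔS15 and 343 for R11ΔS15, with 2 members in each: MET3 at 0.65 and 0.59 (adjusted p = 0.0471 and 0.0444) and MET2 at 0.74 and 0.94 (adjusted p = 0.0391 and 0.0195). Without WT replicate 3, it called 38 genes in ΔS15 and 128 in R11ΔS15, and 1 member, MET2 in R11ΔS15 (0.94, adjusted p = 0.0262). All remaining WT arrays are then of the other ACT1 ratio set, so that strain and set cannot be told apart. Same-numbered arrays deviated together in WT, R11 and K11 (correlations of 0.54 to 0.66) but not in pairs with ΔS15 or R11ΔS15 (-0.02 to 0.08). The numbers were therefore not used to pair arrays. Each of the 10 arrays numbered 1 or 2 correlated best with an array of its own number. Deviations from the strain mean mirror each other where a strain has 2 arrays, so these are not 10 separate results. For the ΔS15 and R11ΔS15 arrays, the mean correlation with same-numbered arrays was -0.01 to 0.08. Leaving out 1 array moved the count of called genes between 0 and 1 (R11), 0 and 38 (ΔS15), or 0 and 128 (R11ΔS15), and of called members between 0 and 1 in R11ΔS15. The 1 gene called in R11 came without R11 replicate 2. Leaving out 1 array moved the median of the 10 genes between -0.15 and 0.12 (R11), -0.17 and 0.13 (K11), 0.05 and 0.15 (ΔS15), or 0.00 and 0.20 (R11ΔS15). Of the values of single members, 1275 kept their side of the threshold and 5 crossed it, those above. The planned split by spike-ins set WT replicate 1 alone apart, and so equals leaving it out.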
